A study of Mus musculus with 36 samples.

Results

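The promoter contacts of neural stem cells (NSCs) were compared between cells with intact Tet genes (WT) and cells in which Tet1, Tet2 and Tet3 were all knocked out (TKO). The members are all loops in the deposited lists of promoter capture Hi-C (pcHiC), with 1 library of each genotype. These are 2 of the 36 samples of a mouse study on TET enzymes in the step from embryonic stem cells (ESCs) to NSCs. The WT list held 59754 loops and the TKO list 58145. Loops listed in both directions were collapsed to 1 pair of fragments, which left 51990 pairs in WT and 51122 in TKO, or 88427 different pairs in all. The NSCs were made in culture from ESCs and harvested on day 6, at passage 1. For pcHiC they were fixed with 4% paraformaldehyde, and the labels state 170 to 190 M raw read pairs per library. The sources used here do not say which line gave each pcHiC library. Expression was taken from RNA-seq of NSCs of the same study, from 3 WT and 2 TKO lines. These lines are male, of strain V6.5, a mix of 129/C57BL/6. With 1 pcHiC library per genotype there is no replicate check of any loop. Genotype and library cannot be told apart, so all loop values are descriptions and carry no p-value.

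In pcHiC, chromatin that lies close together in the nucleus is ligated, and probes then pull down the ligation products that hold a promoter. A loop is a promoter fragment and another fragment that were joined more often than their distance along the chromosome would give. Such contacts bring distant enhancers to promoters, and many are held by the cohesin complex, which extrudes loops of chromatin until it meets the DNA-binding protein CTCF. TET1, TET2 and TET3 oxidize 5-methylcytosine and so open the way to its removal, mostly at enhancers and at the edges of CpG-rich promoters. CTCF binds some of its sites less well when a CpG in them is methylated. In neural stem cells, transcription factors such as SOX2 and the OLIG proteins act through enhancers that can lie far away from the genes they serve.

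The promoters of 4 genes whose contacts are described below are shown here because their CpG content ranges from none to dense. They were chosen after their values were seen. Each is the stretch of 250 bases before the gene's start, taken from RefSeq on GRCm38.p6 (mm10), with CpG dinucleotides in capitals. Olig2 encodes a transcription factor of oligodendrocyte precursors and ventral neural progenitors, and its stretch lies at chr16:91225300-91225549 on the plus strand with 22 CpGs. Zic1 encodes a zinc finger factor of dorsal neural tissue, and its stretch lies at chr9:91365769-91366018 on the minus strand with 27 CpGs. Fabp7 encodes the fatty acid binding protein of radial glia, and its stretch lies at chr10:57784673-57784922 on the plus strand with 4 CpGs. Mlc1 encodes a membrane protein of astrocytes, and its stretch lies at chr15:88978554-88978803 on the minus strand with 0 CpGs.
Olig2: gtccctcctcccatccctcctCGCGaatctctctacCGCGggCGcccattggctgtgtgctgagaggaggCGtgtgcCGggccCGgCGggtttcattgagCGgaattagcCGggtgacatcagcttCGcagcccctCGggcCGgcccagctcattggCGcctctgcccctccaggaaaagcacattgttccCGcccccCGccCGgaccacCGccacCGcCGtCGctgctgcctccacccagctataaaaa
Zic1: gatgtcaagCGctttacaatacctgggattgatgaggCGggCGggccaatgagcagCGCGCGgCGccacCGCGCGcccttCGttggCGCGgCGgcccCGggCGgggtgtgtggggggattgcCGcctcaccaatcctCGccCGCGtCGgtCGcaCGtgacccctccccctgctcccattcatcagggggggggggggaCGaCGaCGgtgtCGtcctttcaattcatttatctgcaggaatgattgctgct
Fabp7: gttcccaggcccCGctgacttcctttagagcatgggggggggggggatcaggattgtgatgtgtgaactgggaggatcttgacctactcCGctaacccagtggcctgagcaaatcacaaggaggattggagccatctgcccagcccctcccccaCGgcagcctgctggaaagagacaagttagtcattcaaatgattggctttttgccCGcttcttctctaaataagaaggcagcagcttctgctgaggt
Mlc1: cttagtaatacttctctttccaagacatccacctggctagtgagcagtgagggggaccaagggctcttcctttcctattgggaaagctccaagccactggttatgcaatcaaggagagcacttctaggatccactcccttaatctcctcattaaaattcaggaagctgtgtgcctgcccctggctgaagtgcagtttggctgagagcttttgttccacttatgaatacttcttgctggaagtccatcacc

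The core of the CTCF consensus, 12 letters long, was searched on both strands of these stretches and occurred in none of the 4. Among 27025 RefSeq promoters of the same length, 906 (3.35%) held it. It was present in 5.82% of 1237 promoters of genes with at least 2-fold fewer pairs in TKO. Of genes that differed by less than 2-fold, 4.89% of 4193 promoters held it, and of those with at least 2-fold more, 4.10% of 976. The promoter set did not cover all genes of these classes, which held 1691 with fewer and 1391 with more pairs, and it lacked Ccnd1 and Olig1, among others. The median number of CpGs per stretch was 16 for genes with fewer pairs, 15 for genes that differed by less than 2-fold and 12 for genes with more pairs. Promoters on no listed fragment had a median of 3. These letters describe the stretches only, and no binding or methylation was measured here.

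The targeted genes were still counted in the RNA-seq table. Tet3 measured 4050, 4089 and 4208 normalized counts over the WT lines against 2379 and 2597 over the TKO lines. On the log2 scale it fell by 0.73 (limma, SE 0.07, adjusted p = 1.6e-05). Tet1 measured 663, 717 and 901 over the WT lines against 517 and 574 over the TKO lines, and fell by 0.47 (SE 0.15, adjusted p = 0.032), a call lost under 6 alternatives with adjusted p up to 0.149. Tet2 measured 1276, 1295 and 1066 over the WT lines against 1146 and 1555 over the TKO lines (log2 difference 0.14, adjusted p = 0.459). The sources used here do not say which part of each gene was deleted, so these levels do not check the genotype labels. In the loop lists, Tet2 had 1 pair in WT and 5 in TKO, Tet1 had 2 and 1, and Tet3 had 1 and 0.

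The neural label was checked against markers. The 24 markers of neural stem cells and radial glia were all detected, and their summed level lay between 468371 and 485851 normalized counts in WT and was 254346 and 261124 in TKO. The 20 measured pluripotency markers of 23 summed to between 3570 and 3786 in WT and to 12579 and 8094 in TKO. Of 14 markers of endothelium, blood and microglia, 10 were not tested here, among them Ptprc, Gata1, Aif1 and P2ry12. The other 4 summed to between 274 and 349 in WT and to 1147 and 603 in TKO. Of these 4, 3 rose and 0 fell, beside 18.2% and 19.5% of all tested genes. The 17 measured mesoderm and endoderm markers of 18 summed to between 9134 and 10441 in WT and to 15171 and 16548 in TKO. Of these, 8 rose and 1 fell. The fibroblast and mesenchyme markers summed to between 161481 and 210994 in WT and to 212901 and 176652 in TKO. Fewer cells of a type and a lower level per cell cannot be told apart in these bulk samples, and the part of the cell mixture in the loop differences was not tested.

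A similar fraction of each list was found in the other genotype, and it was larger at higher scores. Of the 51990 WT pairs, 14685 (28.2%, 95% Wilson interval 27.86 to 28.63) were listed for the same fragments in TKO, and they made up 28.7% of the 51122 TKO pairs (28.33 to 29.12). WT alone held 37305 pairs and TKO alone 36437. The score is the authors' value for each loop. It was at least 5 in both lists, and its scale is not stated in the sources at hand. Among pairs with a score of 5 to 6, 16.6% of WT pairs were also in the TKO list and 17.1% of TKO pairs were in the WT list. At scores of 10 to 15 the shares were 63.6% and 64.5%, and at 15 or more they were 81.7% and 82.3%. The intervals cover counting error only.

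**Figure D1:**
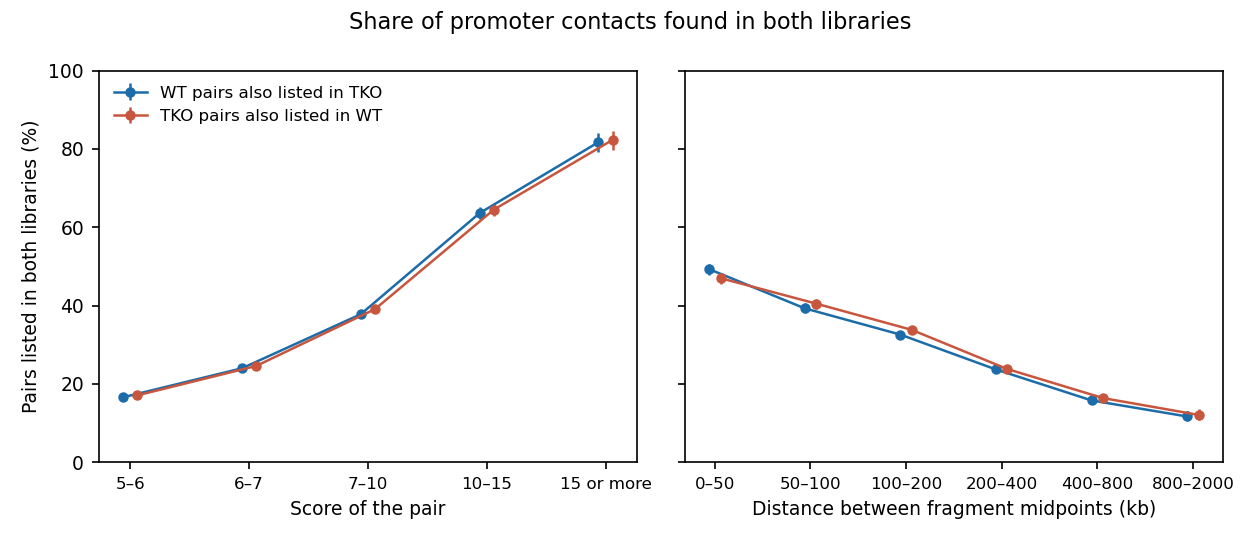
Share of fragment pairs listed in both libraries, in percent of the pairs of each bin, against the score of the pair (left) and the distance between fragment midpoints in kb (right). Blue points are WT pairs, red points are TKO pairs and bars are 95% Wilson intervals, which cover counting error only. In both libraries the share is 16.6% and 17.1% in the lowest score bin and 81.7% and 82.3% at scores of 15 or more, and it is smaller at longer distances.

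Many pairs that were missing from the other list had a near neighbour there. The fragments are tiles with a median length of 5129 bp, so that a contact region can span several of them. When both ends had only to lie within 5 kb of those of a pair in the other library, 45.2% of WT and 46.0% of TKO pairs were matched. Within 20 kb, 65.2% and 67.1% were matched. Even so, 18069 WT pairs and 16800 TKO pairs had no partner in the other list within 20 kb. Of the 1582 WT-only pairs with a score of at least 10, the median distance was 254 kb, and it was 249 kb for the 1483 such TKO-only pairs.

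Pairs between promoters were shared more often than pairs of a promoter and another fragment. A fragment was taken as captured where it is a first anchor in either list. Pairs with both ends captured made up 41.9% of WT pairs and 41.4% of TKO pairs, and 40.3% and 41.5% of them were shared. Of pairs with 1 captured end, 19.5% and 19.7% were shared. As this mark comes from the lists themselves, a pair in both lists has more chances to carry it at both ends. Annotated gene starts were also used, with either end of the span taken where the strand was not known. By these, 37.7% and 39.3% of pairs with a start at both ends were shared, against 21.9% and 22.1% with 1. Pairs with both ends captured also had higher median scores (6.67 and 6.64 against 6.00 and 5.97) and shorter median distances (174 and 170 against 244 and 245 kb), whose part was not tested. Both ends held an annotated gene start in 41.8% of WT and 40.8% of TKO pairs, 1 end did in 52.7% and 53.2%, and neither did in 5.52% and 6.00%. Where both ends were captured, the contact can be listed from each end, and 35.6% of such pairs in WT and 33.2% in TKO were listed in both directions. Their median score was 8.26 in WT and 8.14 in TKO, against 6.08 and 6.12 for those listed in 1 direction.

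The 2 genotypes had the same median distance. It was 215 kb in both, with quartiles of 114 and 374 kb in WT and of 113 and 371 kb in TKO. Shared pairs were closer, with a median of 155 kb and a median WT score of 7.34. WT-only pairs had a median of 244 kb and a score of 5.99, and TKO-only pairs a median of 244 kb and a score of 5.96. Under 50 kb, 49.3% of the WT pairs were shared, and beyond 800 kb 11.7% were. The longest listed pairs spanned 1996 kb in both libraries.

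**Figure D2:**
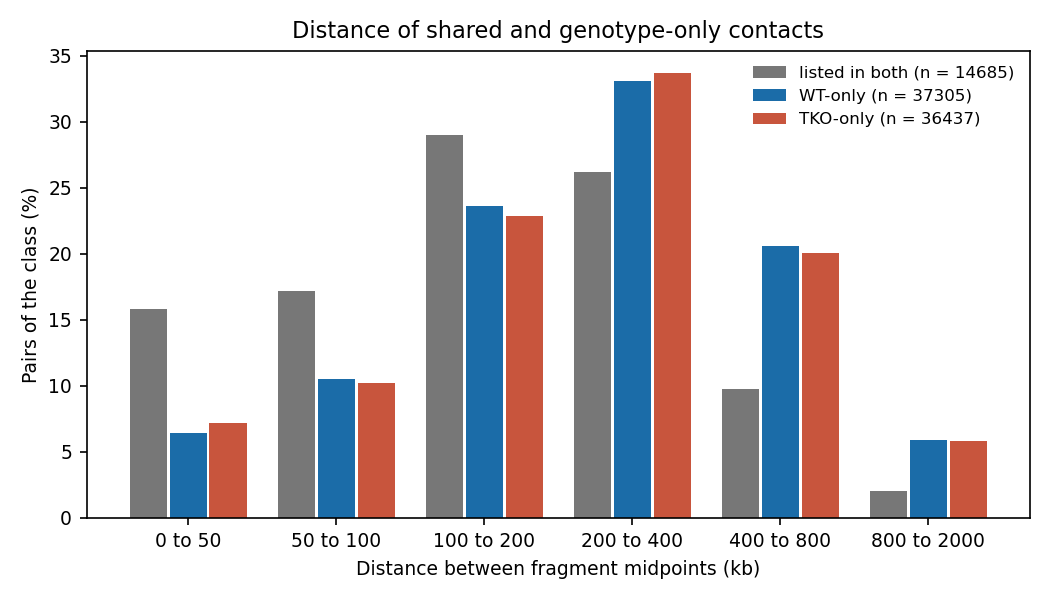
Distance between fragment midpoints in kb (horizontal axis) for pairs listed in both libraries (grey), in WT only (blue) and in TKO only (red), as percent of each class (vertical axis). The WT-only and TKO-only bars are of similar height in each bin, while the pairs listed in both lie more often under 200 kb.

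The scores of shared pairs were spread around equality. The median log2 ratio of the TKO score to the WT score was -0.02 over 14685 pairs, and the middle 80% of pairs lay between -0.67 and 0.63. The TKO score was at least 2-fold higher in 2.81% of them and at least 2-fold lower in 3.36%. Across pairs, Pearson's r between the log scores was 0.47. Only pairs above the minimum in both lists enter this value, and neighbouring fragments are not independent.

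Chromosome 11 and the distal part of chromosome 6 stood apart. On chromosome 11 there were 5031 pairs in WT and 8200 in TKO, a ratio of 1.63. On chromosome 6 from 110 Mb there were 963 and 1773, a ratio of 1.84, and on the rest of that chromosome the ratio was 0.916. The boundary at 110 Mb was read from the pair counts along the chromosome. Across the other 16 autosomes besides chromosome 8, the ratio lay between 0.805 on chromosome 3 and 0.959 on chromosome 9. Chromosome 8 was at 0.846 and the X chromosome at 0.850. Of the chromosome 11 pairs, 41.0% of those in WT were shared but 25.1% of those in TKO. The shared pairs there had a median log2 score ratio of 0.12, against -0.04 outside chromosomes 8, 11 and distal 6.

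Gene expression was shifted on the same chromosomes. Of 17744 genes tested, 3236 (18.2%) rose in TKO and 3462 (19.5%) fell, or 37.7% in all. On chromosome 11, 774 of 1301 tested genes rose (59.5%) and 79 fell, with a median log2 fold change of 0.53. On distal 6, 162 of 302 rose (53.6%) and 29 fell, and the median was also 0.53. On chromosome 8, 14.6% of 861 rose and 23.0% fell, and outside the 3 regions 15.3% of 13932 rose and 21.8% fell. The part of DNA copy number in the pair counts was not tested. Because of the shifts on chromosome 11 and distal 6, results on genes are given for the genome and for the genes outside chromosomes 8, 11 and distal 6. Chromosome 8, whose ratio of pairs (0.846) lay within the range of the other autosomes, was set aside with them by a choice made with earlier results of these data known.

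**Figure D3:**
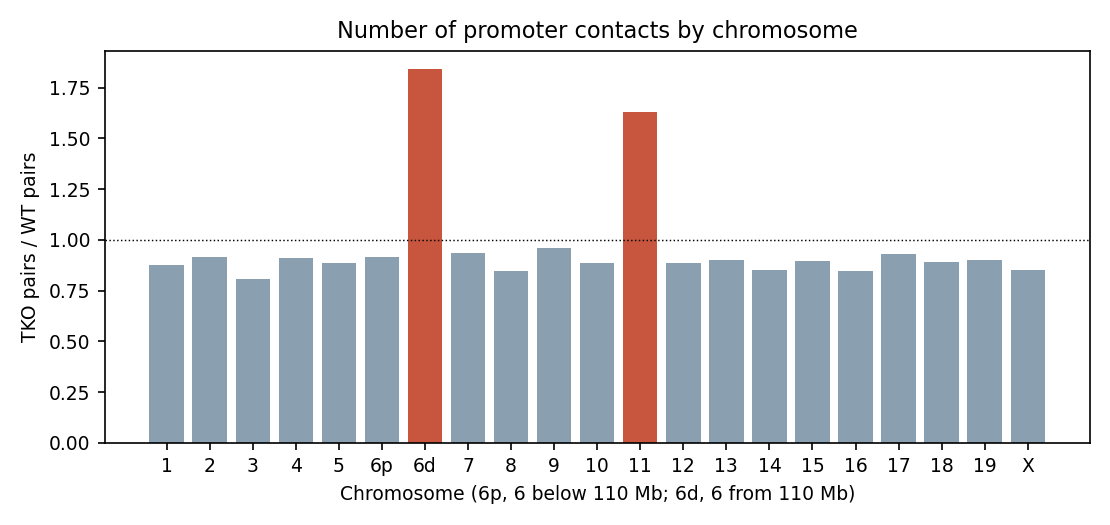
Number of fragment pairs in TKO divided by the number in WT (vertical axis) for each chromosome, with chromosome 6 divided at 110 Mb. The dotted line marks equal numbers. Chromosome 11 and distal 6 (red) lie at 1.63 and 1.84, and the other bars lie below 1.

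A gene was assigned the pairs of the fragment that holds its annotated start, or of the fragments of both ends of its span where the strand was not known, and 23629 genes lay on a listed fragment, of which 9063 had 5 or more pairs in at least 1 library. Of these, 1691 (18.7%) had at least 2-fold fewer pairs in TKO and 1391 (15.3%) had at least 2-fold more. On chromosome 11, 459 of 1186 genes had more (38.7%) and 30 had fewer. On distal 6, 119 of 234 had more (50.9%) and 6 had fewer. Outside the 3 regions the balance lay the other way, with 1555 of 7110 genes at fewer pairs (21.9%) and 774 at more (10.9%). These counts were not scaled, and the ratio of all TKO to WT pairs there was 0.898. Over the genome, scaling to equal numbers of pairs gave 1385 genes with fewer and 1391 with more. Scaling within regions gave 1435 and 961. Genes with the same fragments share their pairs, and the 23629 genes stand for 20027 different sets of 1 or more fragments. The highest number of pairs of any gene was 63 in WT and 92 in TKO, at different genes.

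Expression was set beside the call on pairs, against a background of 18.2% of all tested genes that rose and 19.5% that fell. Of 1311 tested genes with at least 2-fold fewer pairs, 337 fell (25.7%) and 184 rose (14.0%), with a median log2 fold change of -0.05. Of 872 with at least 2-fold more pairs, 315 rose (36.1%) and 133 fell (15.3%), with a median of 0.18. Outside the 3 regions, genes with fewer pairs fell in 26.2% and rose in 12.9% of cases, beside 21.8% and 15.3% of all tested genes there. Genes with more pairs outside the regions rose in 21.1% and fell in 20.2% of cases, with a median of -0.01. Of the 75 tested genes with 5 or more pairs in WT and 0 in TKO, 21 fell and 12 rose. Across the 6624 tested genes with 5 or more pairs, the log ratio of pairs and the log2 fold change had a Pearson's r of 0.16 and a Spearman's rho of 0.174. Across the 5263 of them outside the 3 regions the values were 0.092 and 0.062. These are descriptions across genes, which are not independent replicates and share fragments and libraries.

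Read from the side of expression, the largest changes went with the clearest differences in contacts. The pairs of a gene include both ends of its span where the strand was not known, so not all are promoter contacts. Outside the 3 regions, 833 genes at an anchor fell at least 2-fold. Together they had 3555 pairs in WT and 2818 in TKO, a ratio of 0.793. Of the 338 among them with 5 or more pairs, 32.2% had at least 2-fold fewer pairs and 10.4% at least 2-fold more. For the 6975 genes that did not pass the test the ratio was 0.876, with 22.0% of genes at fewer and 9.12% at more. The 571 genes that rose at least 2-fold had 1731 pairs in WT and 1790 in TKO, a ratio of 1.03, and of 179 with 5 or more pairs 14.0% had fewer and 27.9% had more. Genes that changed by less than 2-fold had ratios of 0.829 where they fell and 0.883 where they rose. The number of pairs also went with the level of expression: the median WT level was 159 normalized counts for genes on no listed fragment, 946 for genes with 1 to 4 pairs, 1427 for genes with 5 to 9 and 1428 for genes with 10 or more.

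**Figure D4:**
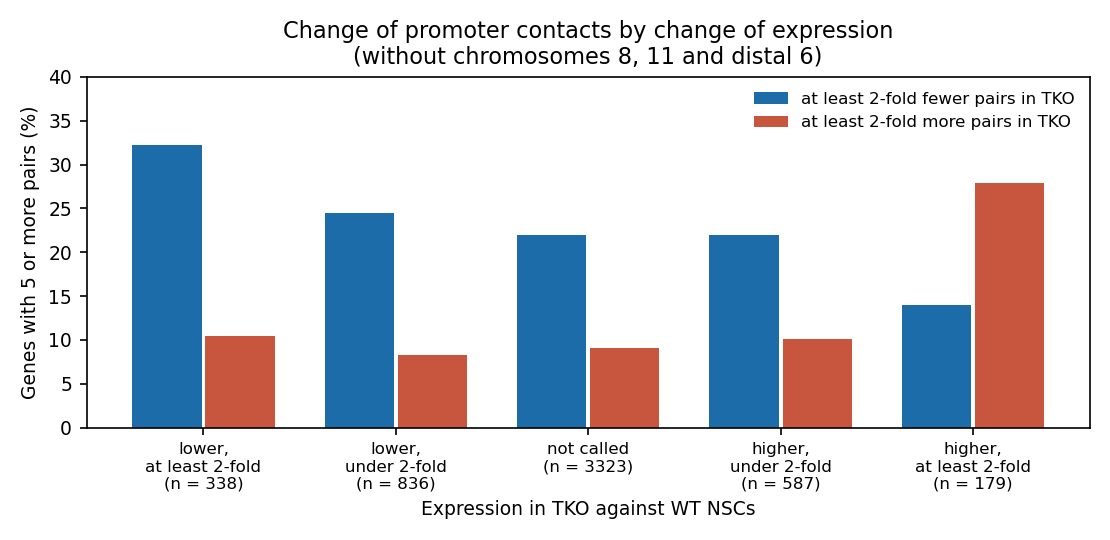
Percent of genes with 5 or more pairs in the higher library that had at least 2-fold fewer (blue) or more (red) pairs in TKO, by the change of expression between TKO and WT NSCs, without chromosomes 8, 11 and distal 6. The blue bar is higher than the red one in all classes except the genes that rose at least 2-fold.

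Over the genome, 1699 genes at an anchor changed at least 2-fold in expression. Of these, 873 differed in pairs in the same direction, 587 in the opposite direction and 239 had equal numbers. Among those that fell, 502 had fewer pairs and 303 had more, and among those that rose, 371 had more and 284 had fewer. Outside the 3 regions the counts were 701 in the same direction, 508 in the opposite one and 195 equal, of 1404 genes. Genes whose expression did not pass the test had fewer pairs in 49.8% and more in 35.7% of cases. Outside the 3 regions these shares were 51.3% and 33.7%. Part of the same-direction counts thus goes with the general excess of fewer pairs, and the number to be met without any link was not computed.

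Pairs with a gene at both ends were also sorted by the expression of both genes. Outside the 3 regions, both ends held a gene that fell in 7.05% of 7276 WT-only pairs between tested genes, in 7.42% of 4714 shared pairs and in 6.14% of 5387 TKO-only pairs. Both ends held a gene that rose in 2.94%, 2.93% and 3.62% of them. One end fell while the other rose in 7.57%, 7.06% and 7.56%. These shares were of similar size in the 3 classes, and their differences were not tested.

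Olig1 and Olig2 had few of their WT contacts listed in TKO. Both encode basic helix-loop-helix factors of the oligodendrocyte lineage, and they neighbour each other on chromosome 16. The Olig1 fragment (chr16:91268439-91273550) had 18 pairs in WT and 1 in TKO. The pair that stayed joins it to the Olig2 fragment (chr16:91222625-91227718) at 45.8 kb, with a score of 18.06 in WT and 11.42 in TKO. Of the Olig1 pairs in WT, 14 reached to lower coordinates, from -10.1 to -227 kb, where TKO had only the Olig2 pair. The other 4 reached up to 255 kb to the other side, and the nearest of these, at 31.4 kb and 42.1 kb, had scores of 12.16 and 8.66.

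Olig2 had 9 pairs in WT and 2 in TKO, and both fragments shared partners at chr16:91299599-91305272 and chr16:91310385-91315707 in WT that were in neither gene's TKO list. Olig1 measured 918, 1126 and 1477 normalized counts over the WT lines against 202 and 158 over the TKO lines, so that the groups did not overlap, and the level fell by 2.68 in log2 units (SE 0.20, adjusted p = 1.91e-06). Olig2 measured 814, 1115 and 1464 over the WT lines against 45.9 and 17.6 over the TKO lines, and fell by 5.22 (SE 0.36, adjusted p = 1.08e-06). Of the 8 genes of the oligodendroglial list at an anchor, 6 had 5 or more pairs. Among these 6, 3 had at least 2-fold fewer and 0 had more. The shares were 18.7% and 15.3% over all genes, and 21.9% and 10.9% outside the 3 regions, where all 8 lie. Together the 8 genes had 54 pairs in WT and 31 in TKO. The third gene was Pdgfra, the growth factor receptor of the precursors, with 9 and 4 pairs and an expression difference that did not pass (log2 difference 0.59, adjusted p = 0.0535). Sox8 had 5 and 9 pairs, and Nkx2-2 had 7 in each library while its expression fell by 1.24.

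Ccnd1, which encodes the G1 cyclin D1, had 23 pairs in WT and 5 in TKO, and most of its partners lay in a run of tiles. The ends of the gene lie on 2 fragments, and all but 1 of the pairs belong to the one at chr7:144937400-144942883. All 23 WT partners lay 134 to 362 kb away towards higher coordinates, and TKO listed 4 of them. The strongest, at 301 kb, had scores of 20.18 in WT and 17.27 in TKO, while its neighbour at 295 kb had 18.33 and 5.61. Partners at 171 kb (13.47) and 264 kb (13.86) were listed in WT only. The fifth TKO pair joined the gene to the Fadd fragment, at -358 kb. When partners within 20 kb of each other were counted as 1, both libraries had the same number of partner regions. The TKO number includes the Fadd region, so towards higher coordinates TKO had fewer regions than WT. Expression of Ccnd1 was 22774, 26328 and 24289 normalized counts in WT and 5219 and 5226 in TKO, and fell by 2.23 (SE 0.07, adjusted p = 2.88e-09).

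**Figure D5:**
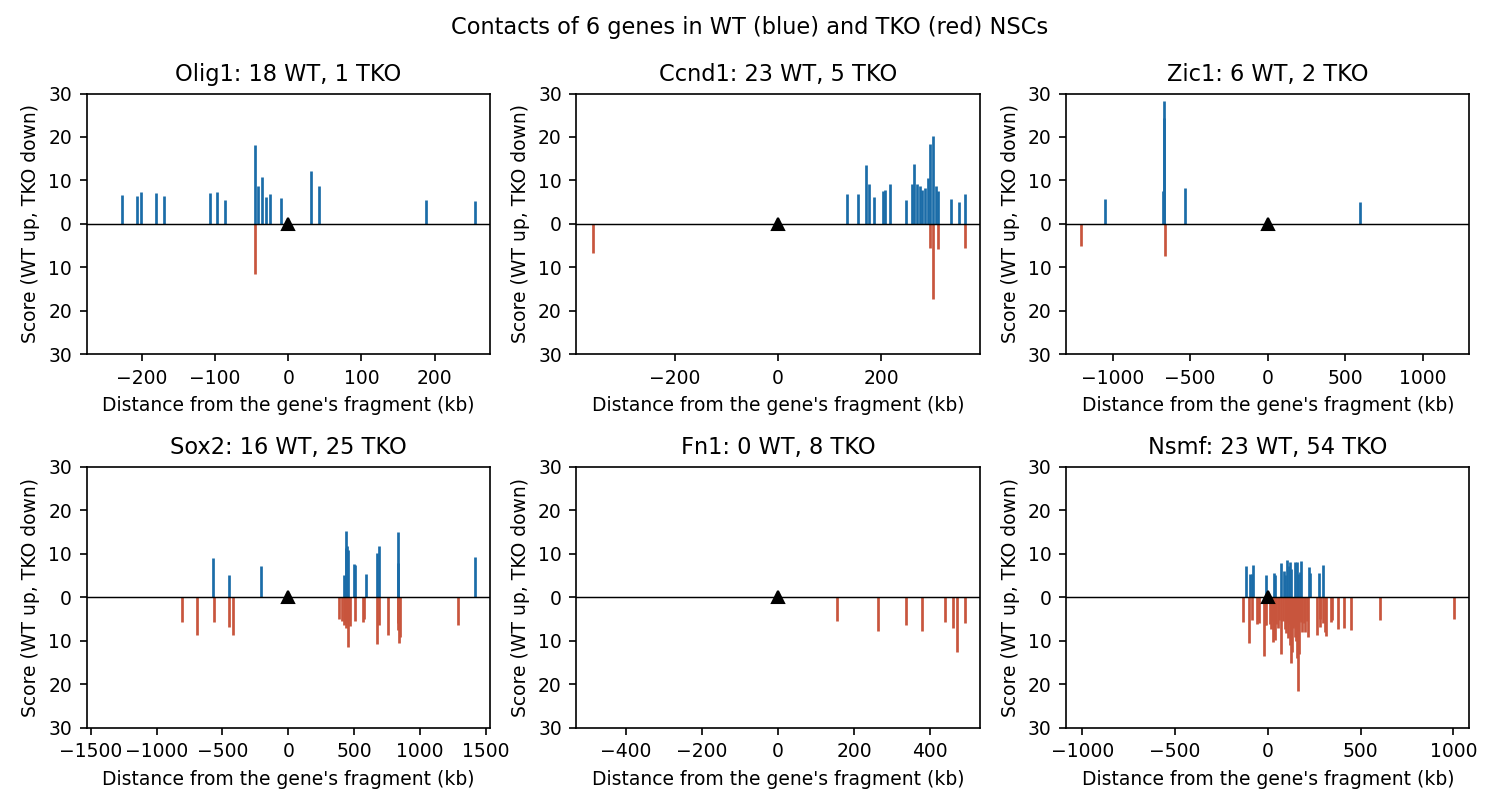
Scores of the pairs of 6 genes, plotted upwards for WT (blue) and downwards for TKO (red) against the distance in kb from the gene's own fragment (triangle). Positive distances point to higher coordinates. Panel titles give the number of pairs in each library. Olig1, Ccnd1 and Zic1 have more lines in WT, and Sox2, Fn1 and Nsmf have more in TKO.

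Of the 24 genes of neural stem cells and radial glia, 21 lay on an anchor, with 98 pairs in WT and 73 in TKO, of which 26 were shared. Fewer pairs were listed in TKO for 15 of them and more for 4, beside 49.8% and 35.7% of genes whose expression did not pass the test. Of genes that fell at least 2-fold, 54.3% had fewer and 32.8% more, and of those that fell by less, 55.4% and 28.9%. Among the 8 of the list with 5 or more pairs, 3 had at least 2-fold fewer (Fabp7, Emx2 and Sox1) and 0 had more. These shares were 18.7% and 15.3% over all genes, and 21.9% and 10.9% outside the 3 regions. Expression fell in 17 of the 24 and rose in 2, beside 19.5% and 18.2% of all tested genes. Sox1 lies on chromosome 8, and its pairs numbered 8 and 4 while its expression fell by 2.02 (adjusted p = 2.15e-07).

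Fabp7 had 7 pairs in WT and 0 in TKO. The strongest joined it to the Ranbp2 fragment at 664 kb with a score of 15.36, and the other 6 had scores between 5.05 and 6.21. Its expression was 16157, 14872 and 20804 normalized counts in WT and 3726 and 6370 in TKO, and fell by 1.81 (SE 0.19, adjusted p = 1.99e-05). Emx2, a homeobox gene of the dorsal forebrain, had 6 pairs in WT and 1 in TKO. Its pair at 688 kb had a score of 27.95 in WT and was not listed in TKO, and its pair with the Rab11fip2 fragment at 486 kb had 12.63 and 6.45. Emx2 measured 805, 503 and 794 over the WT lines against 134 and 80.0 over the TKO lines, and fell by 2.71 (SE 0.27, adjusted p = 1.39e-05).

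Sox2, a core transcription factor of neural stem cells and of pluripotent cells, went the other way in number and not in strength. It had 16 pairs in WT and 25 in TKO, 9 of them shared, but 7 pairs with a score of at least 10 in WT and 3 in TKO. Between 385 and 504 kb away there were 7 WT and 10 TKO pairs, and the score at 442 kb was 11.27 in WT and 5.71 in TKO. Between 674 and 845 kb there were 4 and 7, and the score at 835 kb was 15.12 and 5.90. The median score over its pairs was 9.12 in WT and 6.41 in TKO. Sox2 expression was 15088, 14463 and 16470 in WT and 6629 and 8555 in TKO, and fell by 1.02 (SE 0.10, adjusted p = 1.08e-05).

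Astroglial and gliogenic genes were mixed in contacts while most of them fell in expression. The list had 73 pairs in WT and 69 in TKO over 14 genes at an anchor. Of the 7 with 5 or more pairs, 3 had at least 2-fold fewer and 1 had more. These shares were 18.7% and 15.3% over all genes, and 21.9% and 10.9% outside the 3 regions. In expression, 13 of 18 tested genes fell and 1 rose, beside 19.5% and 18.2% of all tested genes. Mlc1 had 7 pairs in WT and 2 in TKO, none shared and none above a score of 8.87. Its expression was 3348, 3168 and 3240 in WT and 42.2 and 23.4 in TKO, and fell by 6.65 (SE 0.21, adjusted p = 3.56e-09). Aldoc, the brain form of aldolase, had 10 and 3 pairs and fell by 1.29 (adjusted p = 1.01e-05) although it lies on chromosome 11. Sparcl1, a secreted matrix protein of astrocytes, had 6 and 2. Gfap, the astrocyte intermediate filament, lies on chromosome 11 and had 12 pairs in WT and 30 in TKO, with its strongest pair at a score of 17.33 in WT and 28.58 in TKO. Its expression was 39.3, 82.3 and 52.4 in WT and 13.8 and 7.81 in TKO, and fell by 2.31 (SE 0.57, adjusted p = 0.00778).

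Among dorsoventral patterning genes, which set cell identity across the neural tube, 15 at an anchor had 63 pairs in WT and 52 in TKO. Of 16 tested genes, 12 fell and 1 rose, beside 19.5% and 18.2% of all tested genes. Zic1 had 6 pairs in WT and 2 in TKO, with none in common. Its strongest WT pairs, with scores of 28.36 and 24.28, reached neighbouring fragments at -666 and -671 kb, and TKO listed the next fragment, at -661 kb, with a score of 7.44. Zic1 measured 18695, 16974 and 20088 normalized counts over the WT lines against 5302 and 4223 over the TKO lines, and fell by 1.97 (SE 0.10, adjusted p = 8.42e-08). Zic2 had 7 and 4 pairs, but 0 and 1 at a score of at least 10, and fell by 2.14 (adjusted p = 2.91e-08). Shh, the ventral signal, had 22 and 20 pairs, 11 of them shared, and fell by 0.64. Pax7, a dorsal paired-box gene, had 2 and 0 and was not tested for expression.

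Forebrain patterning genes had 40 pairs in WT and 42 in TKO over 12 genes. Dlx2, a homeobox gene of inhibitory neuron precursors, had 2 pairs in WT and 6 in TKO, and kept both WT pairs at -98.3 and -93.2 kb. Its expression rose by 2.20 (SE 0.31, adjusted p = 0.000179), from 159, 234 and 408 to 1021 and 1269. Otx1, on chromosome 11, had 11 and 6 pairs and fell by 3.20 (adjusted p = 6.14e-08). Nr2f1, a nuclear receptor of cortical patterning, had 0 and 2 pairs and fell by 0.92 (adjusted p = 8.95e-06).

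Midbrain, hindbrain and spinal genes had 62 pairs in WT and 69 in TKO over 18 genes. Of 15 tested genes, 7 rose and 2 fell, beside 18.2% and 19.5% of all tested genes. Irx3, on chromosome 8, had 2 pairs in WT and 9 in TKO. Its pair with the neighbouring gene Irx5 at 554 kb was kept, with scores of 20.46 and 16.12, and the TKO list added 7 weaker pairs with scores from 5.01 to 7.25. Irx3 expression was 296, 273 and 200 in WT and 863 and 709 in TKO, and rose by 1.63 (SE 0.20, adjusted p = 6.7e-05). Hoxb1, on chromosome 11, had 0 and 5 pairs and was not tested for expression, and neither was Pax8 with 4 and 0. En1 had 6 and 3 pairs, and its expression difference did not pass (adjusted p = 0.481).

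Pluripotency genes had few pairs in either library, 44 in WT and 30 in TKO over 18 genes. Even so, 12 of 20 tested genes rose and 0 fell, beside 18.2% and 19.5% of all tested genes. Pou5f1, which encodes OCT4, had 0 pairs in WT and 3 in TKO, 313 to 414 kb away with scores up to 8.16. It measured 280, 320 and 422 normalized counts over the WT lines against 3044 and 1650 over the TKO lines, and rose by 2.74 (SE 0.24, adjusted p = 5.68e-06). Lefty2, a secreted inhibitor of Nodal, had 9 and 1 pairs with no change that passed (adjusted p = 0.208). Tdgf1, a Nodal co-receptor, had 5 and 0 pairs and rose by 1.71 (adjusted p = 0.00616), but its values in the TKO lines were 914 and 258, and without the first TKO line the adjusted p was 0.067.

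Imprinted genes, whose alleles are expressed by parent of origin under the control of DNA methylation, had more pairs in TKO. Over 20 genes at an anchor there were 81 pairs in WT and 112 in TKO, with more pairs for 14 genes and fewer for 3. Of genes whose expression did not pass the test, 35.7% had more pairs and 49.8% fewer. Of genes that rose at least 2-fold, 47.9% had more and 36.7% fewer. Outside the 3 regions these last shares were 41.2% and 43.4%. Among the 13 imprinted genes with 5 or more, 5 had at least 2-fold more and 2 had fewer. These shares were 15.3% and 18.7% over all genes, and 10.9% and 21.9% outside the 3 regions. The 5 with more were Cdkn1c, Meg3, Magel2, Peg10 and Sgce, and the last 2 share a fragment with 2 pairs in WT and 7 in TKO. Peg3 and Usp29 also had equal counts (5 and 8, 4 shared), so the 14 genes with more pairs are not all separate. Cdkn1c alone had 11 of the list's pairs in WT and 25 in TKO, and its direction turned with merged partners, as given below. Of the 20 genes, 1 (Zrsr1, on chromosome 11) lies in the 3 regions. Of 28 tested imprinted genes, 20 rose and 5 fell, beside 18.2% and 19.5% of all tested genes. Their median log2 fold change was 0.59, beside 0.01 over all genes tested.

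Cdkn1c, an inhibitor of the cell cycle, had 11 pairs in WT and 25 in TKO, all but 1 between -129 and -393 kb. The pair at -300 kb had scores of 13.68 and 21.56 and the one at -305 kb had 14.75 and 12.43. With partners within 20 kb counted as 1, it had 1 partner region fewer in TKO, so the direction turned. Its partner at -165 kb is the fragment of Kcnq1ot1, the long RNA that silences this cluster on the paternal allele, with scores of 5.22 and 8.45. Its expression difference did not pass (log2 difference 0.15, adjusted p = 0.111). Dlk1, a membrane protein related to the Notch ligands, went against the list with 10 pairs in WT and 3 in TKO. Its WT-only pairs included the Meg3 fragment at 87.4 kb (score 6.31) and a fragment of the neighbouring small RNA cluster at 231 kb (11.71). Dlk1 rose from 1923, 2410 and 2018 to 5092 and 4803, a log2 fold change of 1.23 (SE 0.10, adjusted p = 2.92e-06). Gnas had 10 and 4 pairs and fell by 0.22 (adjusted p = 0.0108), and without the first TKO line its adjusted p was 0.14.

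In the Notch pathway, 15 genes at an anchor had 122 pairs in WT and 102 in TKO. Among 11 with 5 or more pairs, 3 had at least 2-fold fewer and 0 had more. The shares were 18.7% and 15.3% over all genes, and 21.9% and 10.9% outside the 3 regions, where these 15 genes lie. Of 17 tested genes, 5 rose and 7 fell, beside 18.2% and 19.5% of all tested genes. Jag1, a Notch ligand, had 7 pairs in WT and 2 in TKO, and its pair with the Mkks fragment at -223 kb had scores of 19.63 and 5.75. Jag1 measured 3487, 3499 and 3381 over the WT lines against 6306 and 5290 over the TKO lines, and rose by 0.74 (SE 0.08, adjusted p = 3.07e-05), so that its contacts and its expression differed in opposite directions. Lfng, which modifies Notch receptors, had 5 and 2 pairs and fell by 0.75. Nrarp, a feedback inhibitor of the pathway, had 11 and 5 pairs, but at a score of at least 10 it had 0 in WT and 2 in TKO. Its expression fell by 0.59 (adjusted p = 0.0369), a call lost under 6 alternatives with adjusted p up to 0.143. Jag2, another ligand, had 9 and 5 pairs and fell by 0.45 (adjusted p = 0.0178), a call lost under 3 alternatives with adjusted p up to 0.183.

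Wnt pathway genes had 94 pairs in WT and 96 in TKO over 22 genes. Of 25 tested genes, 6 rose and 11 fell, beside 18.2% and 19.5% of all tested genes. Wnt3a, on chromosome 11, had 7 and 14 pairs while its expression fell from 105, 26.0 and 60.2 to 1.84 and 0 (adjusted p = 0.000738). With its partners merged within 20 kb it had 1 region fewer in TKO. Lgr5, a receptor for R-spondins, had 5 and 0 pairs and fell by 1.74 (adjusted p = 0.00569). Wnt3, also on chromosome 11, had 1 and 6 pairs with no change that passed.

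Genes of DNA methylation had 69 pairs in WT and 87 in TKO over 14 genes at an anchor. Of 16 tested genes, 4 rose and 4 fell, near the 18.2% and 19.5% of all tested genes. Dnmt3l, the cofactor of the de novo DNA methyltransferases, had 11 pairs in WT and 21 in TKO, 8 of them shared. Its strongest pair, at 124 kb, had a score of 15.41 in WT and 32.84 in TKO, and the pair with the Pwp2 fragment at 140 kb (13.43) was listed in TKO only. Dnmt3l measured 6.20, 6.50 and 3.89 normalized counts over the WT lines against 154 and 111 over the TKO lines, and rose by 4.36 (SE 0.61, adjusted p = 0.000179). Zfp57, which guards methylation at imprinted loci, had 5 and 12 pairs, but 1 fewer in TKO at a score of at least 10.

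The genes of loop architecture (CTCF, cohesin and their partners) had 63 pairs in WT and 43 in TKO over 12 genes. Ctcf, on chromosome 8, had 27 and 17 pairs, 12 of them shared, and fell by 0.19 (SE 0.06, adjusted p = 0.0378), a call lost under 6 alternatives with adjusted p up to 0.133. Smc1a, a cohesin subunit on the X chromosome, had 6 and 1 pairs and fell by 0.37 (adjusted p = 0.000825). Of 16 tested genes, 5 rose and 4 fell, beside 18.2% and 19.5% of all tested genes, with a median log2 fold change of -0.05. Pds5b, a regulator of cohesin, had 3 and 0 pairs with no change that passed (adjusted p = 0.949).

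In the remaining lists the ratio of TKO to WT pairs was 1.28 for fibroblast and mesenchyme genes and between 0.824 and 1.03 for the others. Over all pairs outside the 3 regions it was 0.898. Fibroblast and mesenchyme genes had 43 pairs in WT and 55 in TKO over 11 genes. Of 13 tested genes, 9 rose and 3 fell, beside 18.2% and 19.5% of all tested genes. Fn1, which encodes fibronectin, had 0 pairs in WT and 8 in TKO, 155 to 491 kb away with scores up to 12.64. It measured 30153, 34846 and 27404 over the WT lines against 52899 and 42861 over the TKO lines, and rose by 0.64 (SE 0.10, adjusted p = 0.000528). Col3a1, a fibrillar collagen, had 1 and 4 pairs and rose by 1.74 (adjusted p = 1.2e-07). Col1a1, on chromosome 11, had 7 and 11 and fell by 0.38 (adjusted p = 0.0177), a call lost under 4 alternatives with adjusted p up to 0.209. Mesoderm and endoderm genes had 61 and 57 pairs over 15 genes, and 8 of 17 tested genes rose and 1 fell. Lhx1 had 21 and 16, but 0 and 3 at a score of at least 10, Tbx6 had 7 and 4, and neither passed the expression test. Meox1, a homeobox gene of the somites on chromosome 11, had 0 and 4 and rose by 4.22 (adjusted p = 9.05e-06). Proneural and neuronal genes had 25 and 23 over 14 genes, and 2 of 17 rose and 5 fell. Gad2, which makes the transmitter GABA, had 2 and 0 pairs and rose by 1.39 (adjusted p = 0.000425), and Elavl3, a neuronal RNA-binding protein, had 4 and 2, but 0 and 1 at a score of at least 10, with no change that passed.

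Germline genes known to be silenced by methylation had 31 and 32 pairs over 14 genes, with 3 of 6 tested genes up and 0 down. For this and the next lists, the shares over all tested genes were 18.2% up and 19.5% down. Mov10l1 had 9 and 5, Tuba3b on distal 6 had 3 and 7, and Dazl had 2 and 0, and these 3 were not tested for expression. Endothelium, blood and microglia genes had 17 and 14 over 7 genes, with 3 of 4 tested genes up and 0 down. Spi1 had 5 and 1, Cx3cr1 0 and 1, and P2ry12 1 and 0, and these were not tested for expression. Ribosomal protein genes, which are active in all cells, had 258 and 227 pairs over 20 genes, a ratio of 0.880 beside 0.898 over all pairs outside the 3 regions, with 122 shared. Of these 20 genes, 8 rose and 0 fell. Rpl8 had 9 and 3 pairs with no change that passed (adjusted p = 0.586). Rpl23, on chromosome 11, had 22 and 13 although its expression rose by 0.66 (adjusted p = 1.63e-05).

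Of the genes with the largest falls in number of pairs, Ccnd1 and Olig1 are described above. Isg20l2 and Rrnad1, on 1 fragment at chr3:87929498-87934585, had 34 pairs in WT and 10 in TKO, 9 of them shared, and all WT partners lay between -71.9 and 601 kb. The kept pairs included the Nes fragment at 41.4 kb, with scores of 10.06 and 10.92. Neither gene passed the expression test (adjusted p = 0.236 and 0.278), and with partners within 20 kb counted as 1 the 2 libraries had equal numbers. Cs, which encodes citrate synthase, had 32 and 13 pairs with 3 shared, and its 8 WT pairs with a score of at least 10 had no TKO pair at that score. Its expression difference did not pass (adjusted p = 0.175), and with merged partners it had 2 fewer in TKO. Ddx19b on chromosome 8 had 27 and 9 pairs, Pcsk4 had 31 and 13, and Gpr61 had 40 and 22, which became equal when partners were merged and turned to 1 and 2 at a score of at least 10. Ccdc47 and Ddx42, which share a fragment on chromosome 11, had 21 pairs each in WT and 4 and 5 in TKO. Even so, Ddx42 rose by 0.62 (adjusted p = 1.65e-05). Gm51822, a predicted gene that takes the pairs of the Cs fragment and of 1 more, had 38 and 20.

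Of the 10 largest rises, 9 were on chromosome 11. Krtap4-7, a keratin-associated protein gene that was not tested for expression, had 10 pairs in WT and 53 in TKO, and Krtap4-9 of the same family had 2 and 26. Eif4a1, an RNA helicase of translation initiation, had 26 and 58 pairs and rose by 0.64 (adjusted p = 4.22e-06), and the predicted gene LOC115487878 next to it had 40 and 92. Tbcd had 4 and 27, Fn3k 5 and 28, Alox8 9 and 35 and Aldh3a1 13 and 40. The pseudogene Rps13-ps5, which shares a fragment with Aldh3a1, had 13 and 39. Tbcd and Fn3k had the same highest scores (7.08 in WT and 12.3 in TKO) and the same distances (62.0 to 397 kb). The rises on chromosome 11 are therefore not all separate. With partners within 20 kb counted as 1, the excess in TKO was 2 for Eif4a1 and Aldh3a1, 3 for Alox8 and Fn3k, 4 for Tbcd, 8 for Krtap4-7 and 9 for Krtap4-9. The remaining one was Nsmf, a synapse-to-nucleus signalling gene on chromosome 2, with 23 pairs in WT and 54 in TKO. None of its WT pairs and 11 of its TKO pairs reached a score of 10, and between 10.4 and 315 kb there were 18 and 39. The pair at 161 kb had scores of 5.38 and 21.44. With merged partners the excess for Nsmf was 4. Nsmf expression did not pass the test (log2 difference -0.15, adjusted p = 0.129).

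The strongest pairs of 1 genotype mostly had a neighbour in the other. The exception among those named here was the WT-only pair of highest score, 48.67, between the Gfm2 and Nsa2 fragment (chr13:97135161-97140426) and the Ankra2 and Utp15 fragment (chr13:98262226-98267847), 1127 kb apart. It was listed in both directions in WT, and TKO had no pair within 20 kb of it. Other WT-only pairs of high score were at Btd and Hacl1 on chromosome 14 (37.05, 449 kb) and at Nxn on chromosome 11 (32.68 and 31.90, at 146 and 141 kb). The TKO-only pairs of highest score were at Osm on chromosome 11 (40.91, 15.3 kb), at Ntf3 on distal 6 (32.62, 542 kb), at Purb on chromosome 11 (29.83, 73.9 kb), between Nr2f6 and Abhd8 on chromosome 8 (27.22, 82.0 kb) and at Fbxo48 on chromosome 11 (26.73, 425 kb). All of these had a pair in the other library within 20 kb.

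Genes that changed at least 2-fold in expression and differed most in pairs in the same direction were Ccnd1 and Olig1, described above, and 4 genes with more pairs and higher expression. Dph1, Tnfsf13os and Snord49a on chromosome 11 had 32 and 49, 24 and 42, and 10 and 26 pairs, and Arhgdib on distal 6 had 2 and 17. With merged partners the difference of Tnfsf13os turned to -3. The calls of Tnfsf13os and Snord49a were each lost in 3 alternatives, with adjusted p up to 0.137 and 0.0885. Arhgdib measured 382, 487 and 293 over the WT lines against 1126 and 768 over the TKO lines, and rose by 1.29 (adjusted p = 0.000777). In the opposite direction, Khk, which encodes ketohexokinase, had 20 pairs in WT and 9 in TKO and rose by 1.34 (adjusted p = 6.49e-05), from 259, 236 and 269 to 658 and 632. Ier2, an immediate early gene on chromosome 8, had 36 and 23 pairs and rose by 1.15. Lrrc23 on distal 6 had 14 and 33 pairs and fell by 2.53 (adjusted p = 4.33e-06). On chromosome 11, Fn3k fell by 2.48 and Aldh3a1 fell by 3.40, and the call for Aldh3a1 was lost in 3 of the fits that left out 1 line, with adjusted p up to 0.0796. Gfap, given above, was the sixth of this kind. Fn3k had the same highest scores and distances as Tbcd, so its rise in pairs was not separate from that of Tbcd. Tbcd expression rose by 0.64 (adjusted p = 2.4e-05).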

How the data were processed

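The deposited loop lists hold 2 fragments and a score per loop on mm10. The authors' loop caller, its threshold and the scale of the score are not stated in the sources at hand. The submitters' processing notes for the NSC RNA-seq and pcHiC samples name SAMtools, deepTools and ChIPseeker among other tools. Which of them served pcHiC was not resolved here. The deposited RNA signal is read counts per gene that the authors divided by a size factor per library, and the submitters' processing notes name DESeq2 1.40.2, featureCounts, STAR 2.7.3a and Trim Galore 0.6.5. The values were whole multiples of 1 read in 100% of cases (tolerance 1e-06), which gave 42.8 to 49.1 M reads per library, and 0 per-sample columns were left unused.

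Both directions of a loop were collapsed to 1 pair with the higher score kept, and a pair was shared when the same fragments were listed in both libraries. A gene took the pairs of the fragment with its start, or with either end of its span where no strand was known (16352 of 17771 genes of the RNA table matched RefSeq by symbol, 62 by synonym, and 1357 were unmatched). A gene was called when its pairs differed at least 2-fold with 5 or more in the higher library. Expression was tested with limma 3.58.1 (trend, two-sided, Benjamini-Hochberg, threshold 0.05) on log2(value + 1) of genes whose mean over the 5 libraries reached 10, so fold changes are on that scale and understate low genes. The RNA libraries come from 3 WT and 2 TKO independent lines, and p-values measure the spread between these lines. Computation used R 4.3.3 and Python 3.11.15 (pandas 2.3.3, numpy 2.4.6, scipy 1.17.1), and the steps were tested on simulated data.

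The text names the Tet genes, the 10 largest falls and 10 largest rises in pairs, up to 3 genes per list with the largest difference, the 5 strongest WT-only and 5 strongest TKO-only pairs at a gene start, and the 6 genes changed at least 2-fold with the largest pair difference of the same and of the opposite sign. Other genes given from the lists, the promoters shown, the distance windows and the boundary of distal 6 were chosen after their values were seen. A few items that this rule picks are not reported here. The members and lists were chosen with earlier results of these data known. Alternatives were score minimums of 7 and 10, anchor tolerances of 5 and 20 kb, nearer fragment ends, 10 or more pairs, scaling, pseudocount 5, no expression minimum, equal library totals, the replicate block and each line left out. Scaling within regions, edgeR 4.0.16 on the recovered reads and partners merged within 20 kb were added after seeing the data.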

Additional observations from a re-analysis of the deposited data

How the results depend on the processing

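With a score of at least 7 in both lists there were 17604 WT and 16864 TKO pairs, of which 5238 were shared, 12366 WT-only and 11626 TKO-only. At a score of at least 10 these numbers were 4860, 4657, 1550, 3310 and 3107. With anchors within 5 kb, 23496 WT pairs were shared, and within 20 kb 33921 were, which left 18069 WT-only and 16800 TKO-only pairs. The median distance was 193 kb in WT and 192 kb in TKO at a score of at least 10, 219 and 222 kb without chromosomes 8, 11 and distal 6, and 210 and 209 kb between the nearer ends. Genes with at least 2-fold fewer and more pairs numbered 107 and 119 at a score of at least 10, 400 and 441 with 10 or more pairs, and 1114 and 844 with partners merged within 20 kb. Scaling to equal numbers of pairs gave 1385 and 1391, and scaling within regions 1435 and 961, beside 1691 and 1391. Without the 3 regions, 774 genes had more pairs. Among genes with fewer pairs, expression was higher in 8 and lower in 20 at a score of at least 10, in 50 and 91 with 10 or more pairs, and in 122 and 202 with merged partners. Among genes with more pairs the counts were 38 and 9, 114 and 31, and 194 and 74. Of the genes with more pairs, 109 were higher without the 3 regions, 144 after scaling within regions and 106 with an expression fit without the regions, in which 2100 genes were higher in all. The cause of these shifts was not tested, beyond the smaller number of pairs or genes that a stricter minimum leaves.

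Leaving out each RNA line in turn gave 2318 to 2916 genes higher in TKO and 2787 to 2965 lower. Genes with fewer pairs and higher expression then numbered 118 to 157, with the lowest number without the first TKO line, those with fewer pairs and lower expression 278 to 309, those with more pairs and higher expression 263 to 293, and those with more pairs and lower expression 107 to 120. With 1 TKO line left, it is assumed to vary like the WT lines. edgeR's quasi-likelihood test on recovered reads called 3303 higher and 3266 lower. The labels share only the replicate numbers. With the replicate block, in which the third WT line has no partner, 3042 genes were higher and 3233 lower, against 3236 and 3462, and the deviations of same-numbered lines correlated at 0.007 and -0.021, against -0.007 and 0.021 for the others. Equal library totals moved the median log2 fold change of all genes from 0.006 to 0.046. Among the genes named here, pair differences turned direction with merged partners for Cdkn1c (-1), Wnt3a (-1) and Tnfsf13os (-3), and at a score of at least 10 for Nrarp (2), Zfp57 (-1), Sox2 (-4), Lhx1 (3), Elavl3 (1), Gpr61 (1) and Zic2 (1). Over the 67 named genes with expression, 738 values under alternatives kept direction and side of the threshold, 38 no longer passed and 4 newly passed. Loop differences are limited by 1 library per genotype, and low scores by the shares given for them.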
